A study of Mus musculus with 101 samples.

Results

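The genes described here are 9 enzymes and regulators of de novo lipogenesis, the pathway that builds fatty acids from carbohydrate carbon: Acly, Me1, Acaca, Fasn, Elovl6, Scd1, Thrsp, Mlxipl and Srebf1. Their rows were found by Entrez ID, joined to RefSeq symbols, in both tables of the series, and all 9 of 9 were present among the 24475 genes listed. All 9 also passed the filter on low counts in each fit, so none was lost and none entered through 1 group alone.

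Lipogenesis starts from citrate that leaves the mitochondria. ATP citrate lyase (Acly) splits it into acetyl-CoA, acetyl-CoA carboxylase (Acaca) turns that into malonyl-CoA in the committed step, and fatty acid synthase (Fasn) joins the units into palmitate at the cost of NADPH. White fat cells run this pathway after carbohydrate meals, and in rodents a fat-rich diet is known to lower it. ChREBP (Mlxipl), which senses sugar, and SREBP-1 (Srebf1), which insulin activates, are the transcription factors best known for driving these genes.

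The study sequenced messenger RNA of 2 white fat depots, epididymal and subcutaneous. Its 101 libraries belong to 2 experiments, and every mouse was a C57BL/6NTac male. In the gain-of-function experiment wild-type mice on chow carried an AAV8 vector for expression in the liver, with mouse Inhbe (mInhbe) or GFP, and each vector had 10 libraries in each depot. Inhbe encodes the chain of activin E, a ligand of the TGF-beta family that the liver makes. In the loss-of-function experiment mice lacking Inhbe (KO) and wild-type (WT) mice received a high-fat diet (HFD) or chow. This gave 8 KO HFD, 8 WT HFD, 7 KO chow and 8 WT chow libraries of epididymal fat, and 8, 7, 7 and 8 of subcutaneous fat in the same order. The labels do not tie a library of one depot to a mouse of the other, name no vector for the KO experiment, and give no age, no promoter for the vector and no construction of the KO allele.

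Library totals ran from 12970509 to 20170746 estimated counts. Inhbe had 35 to 846 counts in the mInhbe subcutaneous libraries, 4 to 232 in the mInhbe epididymal ones and 0 in the 20 GFP libraries. Inhbe transcript was therefore counted in the fat of mInhbe mice itself, and its part in the results was not tested. In the KO experiment Inhbe reached at most 1 count in a KO library and 5 in a WT library, so these fat libraries cannot check the genotype. The 8 adipocyte markers (Adipoq, Plin1, Fabp4 and others) had counts in every library, as the tissue label calls for. Several libraries stood apart. Liver markers summed to 4461 and 1132 CPM (counts scaled to a library total of 1e+06) in WT HFD epididymal replicates 5 and 4, and to 416 CPM in KO HFD subcutaneous replicate 2 and 221 CPM in WT HFD subcutaneous replicate 6. GFP epididymal replicate 8 carried 1187 CPM of brown fat markers, and GFP epididymal replicate 7 had 3.48 CPM of epididymis markers where its group's median was 5929 CPM. In WT chow replicate 1 and WT HFD replicates 1, 2 and 4 the lymph node that usually comes with the subcutaneous pad was nearly missing from the subcutaneous library.

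The promoter sequences shown here belong to the pair of genes whose changes were largest in the KO comparison, Fasn and Thrsp, and to Mlxipl, which encodes one of the pathway's regulators. They are from RefSeq (GRCm38.p6) and give the 250 bases before an annotated transcript start, 5′ to 3′ on the strand of the gene. Capitals mark the NF-Y word CCAAT (or ATTGG) and the E-box word CACGTG. The Fasn stretch is chr11:120824548-120824797 on the minus strand, the Thrsp stretch chr7:97417551-97417800 on the minus strand, and the Mlxipl stretch chr5:135089640-135089889 on the plus strand.
Fasn: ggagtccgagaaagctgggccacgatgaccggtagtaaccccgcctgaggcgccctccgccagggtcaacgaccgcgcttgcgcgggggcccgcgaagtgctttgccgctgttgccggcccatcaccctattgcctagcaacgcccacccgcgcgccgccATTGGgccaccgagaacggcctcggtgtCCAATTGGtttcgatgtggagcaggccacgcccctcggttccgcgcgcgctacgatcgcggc
Thrsp: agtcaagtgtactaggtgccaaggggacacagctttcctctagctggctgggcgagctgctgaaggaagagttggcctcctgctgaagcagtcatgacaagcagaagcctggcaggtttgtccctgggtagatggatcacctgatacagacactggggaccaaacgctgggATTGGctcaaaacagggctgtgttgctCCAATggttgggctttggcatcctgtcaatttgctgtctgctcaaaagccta
Mlxipl: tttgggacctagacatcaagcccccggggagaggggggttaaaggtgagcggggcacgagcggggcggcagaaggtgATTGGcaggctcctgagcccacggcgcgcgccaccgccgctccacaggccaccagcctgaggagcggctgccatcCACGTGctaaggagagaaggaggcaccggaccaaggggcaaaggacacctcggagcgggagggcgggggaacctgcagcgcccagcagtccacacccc
Promoter windows, which add 50 bases after the start, were given for 8 of the 9 genes, with 12 windows in all. An annotated start can lie inside a gene. Examples are the Acaca window (chr11:84195188-84195487) and the Me1 window with the NF-Y word (chr9:86687228-86687527). The printed Fasn stretch also lies inside its gene, which spans chr11:120805958-120825166. Scd1 had none. CCAAT or ATTGG, the box that the factor NF-Y binds, occurred in windows of 6 genes (Acly, Fasn, Me1, Thrsp, Mlxipl and Srebf1), and 37.4% of all 32851 windows in the table hold it. In the Fasn window the word starts at -90, -62 and -59 from the transcript start, and the last pair overlaps as CCAATTGG. In the Thrsp window it starts at -79 and -52. The E-box word was found in the printed Mlxipl window and in no other of the 12, against 7.15% of all windows. The SREBP site word TCACNCCA, searched on both strands, was found in another Mlxipl window alone, against 4.36% of all windows. Among the 12 windows 5, from 4 genes (Acly, Me1, Mlxipl and Srebf1), held the GC box GGGCGG or its reverse complement, against 35.7% of all windows. No window of the 9 genes held the carbohydrate response word (CACGTG, a gap of 5 bases, CACGTG) or the DR4 word, a direct repeat of AGGTCA spaced by 4 bases. These exact words are present in 0% and 0.0152% of all windows, so their absence here says nothing about the 9 genes. These matches describe letters in a window and are not binding sites.

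On GRCm38.p6, Acly (Entrez 104112) lies at chr11:100476352-100528000, Me1 (17436) at chr9:86581363-86695914, Acaca (107476) at chr11:84129635-84401651 and Fasn (14104) at chr11:120805958-120825166. Elovl6 (170439) lies at chr3:129532386-129638495, Scd1 (20249) at chr19:44394450-44407709 and Thrsp (21835) at chr7:97412933-97417550. Mlxipl (58805) lies at chr5:135089890-135139768 and Srebf1 (20787) at chr11:60199084-60224186. The annotation places other genes over part of Acaca (Tada2a, Gm11437, Gm31074), Acly (Mir7116), Elovl6 (Gm35986), Me1 (A330041J22Rik) and Srebf1 (Rai1, Mir6921, Mir6922), and the sources used here do not give how reads in such overlaps were assigned.

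The 9 genes differ widely in level. Per kilobase of exon, the scale on which levels of different genes can be set side by side, Scd1 averaged 6088 CPM per kb in GFP subcutaneous fat, Fasn 585, Thrsp 395 and Me1 181 CPM per kb. Acly averaged 98.2, Acaca 96.7 and Srebf1 68.8 CPM per kb there. The lowest levels were those of Mlxipl (20.3 CPM per kb) and Elovl6 (13.5 CPM per kb). Together the 9 genes took 3.39 to 4.44% of all counts in KO HFD epididymal libraries and 1.46 to 2.01% in WT HFD epididymal libraries, mostly through Scd1. Counts of Scd1 were not whole numbers in 98.0% of libraries, and its close paralogs Scd2, Scd3 and Scd4 can share its reads, so its level is less certain than the others.

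Over the 12 groups, 5 of the 9 genes had their lowest mean in WT HFD epididymal fat. Fasn averaged 7732 ± 2140 CPM in KO HFD epididymal fat, its highest group, and 1692 ± 271 CPM in WT HFD epididymal fat (SD, n = 8 each). Thrsp averaged 870 ± 261 CPM in the same KO group and 119 ± 43.2 CPM in the same WT group. Acaca averaged 1007 ± 279 CPM in KO chow epididymal fat (n = 7) and 209 ± 34.0 CPM in WT HFD epididymal fat (n = 8). Mlxipl had its highest mean in GFP subcutaneous fat (73.7 ± 15.0 CPM, n = 10) and Srebf1 likewise (296 ± 65.8 CPM), with lows of 32.4 ± 5.48 and 114 ± 19.6 CPM in WT HFD epididymal fat. The groups formed gradients rather than steps. Of the 11 steps from one group to the next in the order of means, 0 exceeded the larger of the neighbouring SDs for Fasn and for Srebf1, 1 did for Acaca, Scd1, Elovl6 and Me1, 2 for Acly and Mlxipl, and 3 for Thrsp. The 2 experiments come from separate tables, so levels were ordered but not tested across them.

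**Figure D1:**
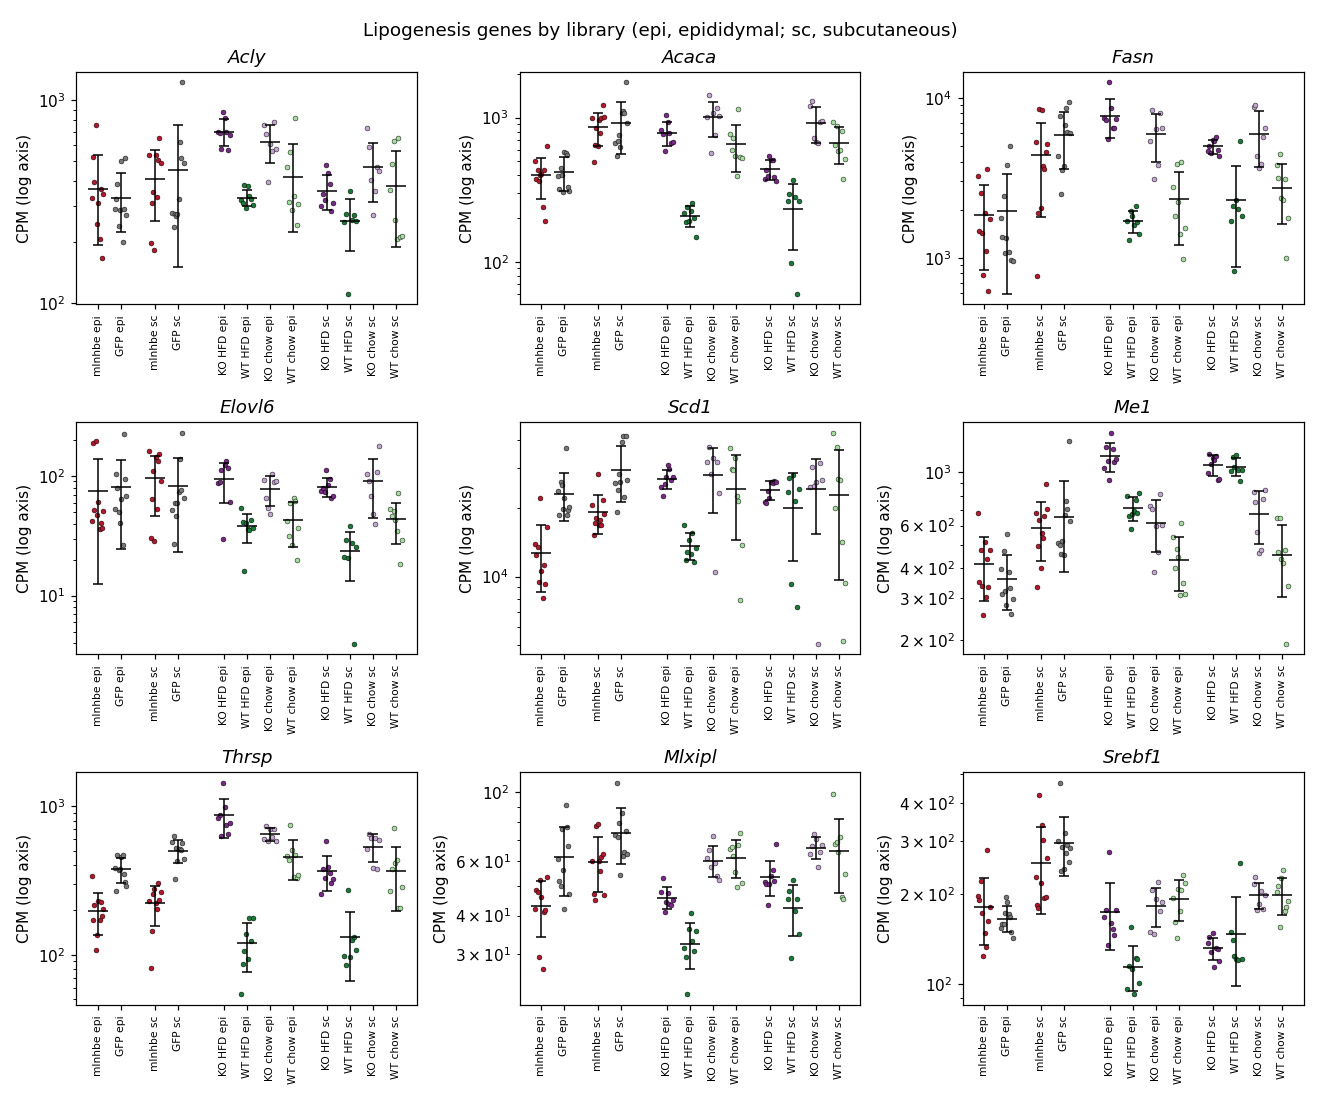
Level of each lipogenesis gene in CPM (log axis) in the 101 libraries, by group, with epididymal (epi) left of subcutaneous (sc) groups and mInhbe, KO and HFD left of their counterparts. Points are libraries and bars the group mean ± SD. The 8 KO HFD epididymal libraries of Thrsp lie between 628 and 1446 CPM, above all 8 WT HFD epididymal ones (54.3 to 177 CPM).

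Changes are given below as log2 fold changes ± SE, called at an adjusted p under 0.05 over all genes tested (edgeR's quasi-likelihood F test with Benjamini-Hochberg adjustment). The fit scales libraries by TMM, whereas CPM here refers to the library total. The choice matters for diet and KO: on the CPM scale the median gene was lower by 0.28 (log2) in KO HFD than in KO chow subcutaneous fat and by 0.18 in KO HFD than in WT HFD epididymal fat. Fold changes are relative to that shift.

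The first comparison asked what extra Inhbe does to the pathway in fat. In subcutaneous fat of mInhbe mice Thrsp, Scd1 and Mlxipl fell, while Acly, Acaca, Fasn, Elovl6, Me1 and Srebf1 did not pass the test. That is 3 of 9 genes lower and 0 higher, where 27.2% of the 13990 genes tested were called and 11.4% were called lower. The median change of the 9 was -0.33, against -0.002 for all genes.

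Thrsp (Spot 14, a small protein that promotes lipogenesis in response to thyroid hormone and carbohydrate) had 81.3, 233 and 306 CPM (lowest, median and highest) in mInhbe subcutaneous fat, against 324, 515 and 632 CPM in GFP subcutaneous fat. No mInhbe library reached the lowest GFP one. The change was -1.29 ± 0.18 (adjusted p = 0.000113), 2.44-fold lower. Scd1, stearoyl-CoA desaturase, which makes monounsaturated fatty acids, had 15302, 17913 and 28361 CPM with mInhbe and 19303, 26262 and 41415 CPM with GFP (-0.72 ± 0.15, adjusted p = 0.00249). The groups overlapped, and 9 of 10 mInhbe libraries lay below the GFP median. Mlxipl had 44.8, 59.9 and 79.0 CPM with mInhbe and 54.2, 72.3 and 107 CPM with GFP (-0.41 ± 0.14, adjusted p = 0.0301), and 8 of 10 mInhbe libraries lay below the GFP median.

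The synthesis enzymes themselves did not pass the test in subcutaneous fat. Fasn had 773, 4167 and 8562 CPM with mInhbe and 2521, 6066 and 9444 CPM with GFP (-0.52 ± 0.34, adjusted p = 0.264). Acaca had 490, 904 and 1225 CPM with mInhbe and 542, 834 and 1755 CPM with GFP (-0.19 ± 0.19, adjusted p = 0.465). Groups overlapped over most of their range for both.

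In epididymal fat of mInhbe mice Thrsp and Scd1 fell, against 1.16% of 14850 genes called and 0.404% called lower. The median change of the 9 was -0.10, against 0 for all genes. Thrsp had 108, 192 and 338 CPM with mInhbe and 270, 377 and 473 CPM with GFP (-0.92 ± 0.17, adjusted p = 0.00593), and 9 of 10 mInhbe libraries lay below every GFP library. Scd1 had 8013, 11832 and 22089 CPM with mInhbe and 18599, 21214 and 36625 CPM with GFP (-0.88 ± 0.17, adjusted p = 0.00784), again with 9 of 10 below every GFP library. Mlxipl missed the threshold with 26.8, 43.9 and 53.1 CPM against 42.1, 58.4 and 90.9 CPM (-0.54 ± 0.14, adjusted p = 0.0748), although all 10 mInhbe libraries lay below the GFP median, and DESeq2 called it (adjusted p = 0.0160). Fasn (-0.11 ± 0.36), Acaca (-0.09 ± 0.18), Acly (0.13 ± 0.22), Elovl6 (-0.10 ± 0.39), Me1 (0.21 ± 0.17) and Srebf1 (0.13 ± 0.11) had adjusted p of 0.648 to 0.933. The vector's effect differed between depots for 0 of the 9 genes (13.5% of 15416 genes called in edgeR). The smallest unadjusted p was that of Srebf1 (0.0393, difference 0.44 ± 0.21), the one member with an unadjusted p under 0.05, and DESeq2 also called 0. Over all genes 4882 of the 15416 had an unadjusted p under 0.05.

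Adipocyte markers moved with the vector in subcutaneous fat. There 5 of 8 adipocyte markers fell and none rose, with summed levels of 13410 to 22340 CPM with mInhbe and 19240 to 25730 CPM with GFP, and 3 of 10 lymph node markers rose (715 to 1424 against 525 to 1051 CPM). In bulk tissue, fewer fat cells and less RNA per fat cell cannot be told apart. With the adipocyte score as a covariate Thrsp was still called (-1.05 ± 0.24, adjusted p = 0.0234), whereas Scd1 (-0.60 ± 0.20, adjusted p = 0.131) and Mlxipl (-0.08 ± 0.14) were not. Mlxipl also missed the threshold without GFP replicate 2 (adjusted p = 0.0592) and without mInhbe replicate 2 (0.0558). In epididymal fat 0 of 8 adipocyte markers were called (9390 to 24870 against 13660 to 23730 CPM), and with the adipocyte score as a covariate Thrsp (-0.79 ± 0.12) and Scd1 (-0.76 ± 0.15) were both still called.

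**Figure D2:**
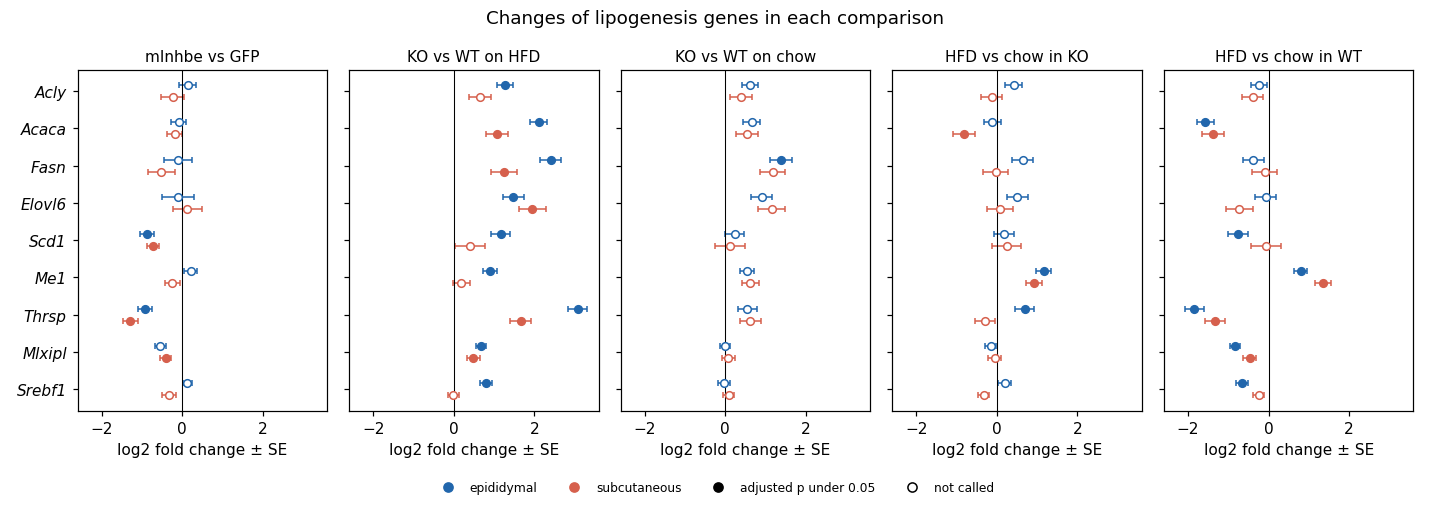
Log2 fold change ± SE of the 9 lipogenesis genes in 5 comparisons, in epididymal (blue) and subcutaneous (red) fat; filled points are called at adjusted p under 0.05. All 9 epididymal points are filled and above 0 for KO against WT on HFD, while Me1 is the one gene above 0 and called for HFD against chow in WT in both depots.

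The second comparison asked what loss of Inhbe does. On HFD all 9 genes were higher in KO than in WT epididymal fat, where 37.2% of 15042 genes were called and 17% were called higher. The median change of the 9 was 1.28, against 0.006 for all genes. For 7 of the 9 the groups did not overlap in CPM, but the share of all genes without overlap was not computed.

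Among the enzymes that supply carbon and reducing power, Acly had 570, 694 and 878 CPM in KO HFD and 295, 324 and 380 CPM in WT HFD epididymal fat (1.28 ± 0.20, adjusted p = 7.45e-06). Me1, malic enzyme, which makes NADPH for the synthase, had 930, 1123 and 1463 CPM in KO and 579, 683 and 818 CPM in WT (0.90 ± 0.17, adjusted p = 6.78e-05). Neither gene's groups overlapped.

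The committed step and the synthase rose further. Acaca had 584, 776 and 1037 CPM in KO HFD and 149, 210 and 257 CPM in WT HFD epididymal fat, 4.32-fold higher (2.11 ± 0.21, adjusted p = 3.86e-09). Fasn had 5514, 7357 and 12492 CPM in KO and 1293, 1680 and 2108 CPM in WT, 5.28-fold higher (2.40 ± 0.27, adjusted p = 3.25e-08). Every KO library lay above every WT library for both genes.

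The modifying enzymes rose less. Scd1 had 22633, 26873 and 31082 CPM in KO HFD and 11587, 13071 and 16879 CPM in WT HFD epididymal fat, without overlap (1.16 ± 0.24, adjusted p = 0.000260). Elovl6, the elongase that lengthens palmitate, had 29.6, 101 and 133 CPM in KO and 16.2, 38.7 and 54.0 CPM in WT (1.48 ± 0.26, adjusted p = 3.42e-05). Its groups overlapped through 1 library, KO HFD replicate 4, which was lowest of its group for Elovl6 and Me1 and highest for Fasn, Acaca, Acly, Thrsp and Srebf1.

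Thrsp showed the largest change of the 9 in this comparison. It had 628, 802 and 1446 CPM in KO HFD and 54.3, 114 and 177 CPM in WT HFD epididymal fat, 8.44-fold higher (3.08 ± 0.24, adjusted p = 5.35e-11). Mlxipl, with 41.0, 44.6 and 52.9 CPM in KO and 22.3, 32.3 and 40.8 CPM in WT, did not overlap between groups either (0.68 ± 0.12, adjusted p = 6.18e-05). Srebf1 overlapped, with 135, 164 and 275 CPM in KO and 92.7, 114 and 155 CPM in WT (0.81 ± 0.15, adjusted p = 6.06e-05). Both regulators thus changed by less than most of the enzymes in fold.

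In subcutaneous fat on HFD, 5 of the 9 genes were higher in KO mice and 0 lower, where 18.9% of 14220 genes were called and 7.32% were called higher. The median change of the 9 was 0.66, against -0.006 for all genes. Elovl6 had 65.2, 77.3 and 112 CPM in KO HFD and 3.94, 25.4 and 38.3 CPM in WT HFD subcutaneous fat, without overlap (1.95 ± 0.34, adjusted p = 0.000144). Thrsp had 258, 343 and 582 CPM in KO and 84.9, 107 and 271 CPM in WT, overlapping through 1 WT library (1.66 ± 0.26, adjusted p = 3.21e-05). Fasn had 4326, 4866 and 5691 CPM in KO and 822, 2024 and 5365 CPM in WT (1.24 ± 0.32, adjusted p = 0.00597). Replicate 6 of WT, with the highest liver marker sum of its group, gave the highest WT value of Fasn. That library was also highest of its group for Srebf1, and lowest for Elovl6, Acaca, Scd1 and Me1. The part of liver transcripts in these values was not tested.

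Acaca, with 361, 415 and 538 CPM in KO HFD and 60.0, 265 and 367 CPM in WT HFD subcutaneous fat, also rose (1.08 ± 0.28, adjusted p = 0.00652). The fifth gene was Mlxipl (43.3, 51.6 and 67.9 against 29.1, 45.2 and 52.0 CPM, 0.48 ± 0.17, adjusted p = 0.0384), whose call ended without the liver-bearing libraries WT HFD 6 and KO HFD 2 (adjusted p = 0.0575) and with no low-count filter (0.0503). Scd1 (0.41 ± 0.37), Me1 (0.19 ± 0.20) and Acly (0.66 ± 0.27, adjusted p = 0.0841) did not pass. Srebf1 had means of 132 ± 11.3 CPM in KO and 147 ± 48.6 CPM in WT (SD, n = 8 and 7; -0.01 ± 0.15, adjusted p = 0.976).

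Between depots the KO effect on HFD was larger in epididymal than in subcutaneous fat for 4 of the 9 genes, where 14.6% of 15480 genes were called and 7.76% were called in that direction. They were Thrsp (difference 1.39 ± 0.34, adjusted p = 0.00371), Srebf1 (0.80 ± 0.20, adjusted p = 0.00575), Acaca (1.01 ± 0.34, adjusted p = 0.0339) and Fasn (1.15 ± 0.41, adjusted p = 0.0471). The fit took the libraries of the depots as independent, which the labels do not settle. The calls of Acaca and Fasn ended without the liver-bearing WT HFD epididymal replicates 4 and 5 (adjusted p = 0.0566 and 0.0756), while those of Thrsp (1.39 ± 0.35) and Srebf1 (0.75 ± 0.20) did not. Leaving out the subcutaneous libraries with little lymph node ended the call of Acaca (0.56 ± 0.34, adjusted p = 0.240), and leaving out WT HFD replicate 6 and KO HFD replicate 2 of subcutaneous fat ended that of Fasn (0.79 ± 0.39, adjusted p = 0.177). Fasn also missed the threshold with no low-count filter (adjusted p = 0.0508). Adipocyte markers showed the same direction, 7 of 8 of them called. Under the adipocyte score covariate 0 of the 9 genes were called, and the differences became -0.01 ± 0.34 for Thrsp, 0.00 ± 0.22 for Srebf1 (just below 0), 0.67 ± 0.44 for Acaca and -0.22 ± 0.48 for Fasn. Adipocyte sums in WT HFD epididymal fat (12350 to 19680 CPM) overlapped neither KO HFD epididymal (21270 to 28490) nor WT HFD subcutaneous fat (22380 to 37150). The covariate fit therefore cannot fully separate marker level from genotype and depot.

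Adipocyte and macrophage markers moved along with the KO on HFD. In epididymal fat 7 of 8 adipocyte markers rose, with summed levels of 21270 to 28490 CPM in KO HFD and 12350 to 19680 CPM in WT HFD, and 6 of 6 macrophage markers fell (658 to 1588 against 2841 to 3677 CPM). Of 6 brown or beige markers 4 rose (37.6 to 64.0 against 12.4 to 16.6 CPM). None of these markers was at 0 in either group. With the adipocyte score as a covariate 5 of the 9 genes were still called: Thrsp (1.93 ± 0.28), Elovl6 (2.29 ± 0.40), Acaca (1.43 ± 0.33), Fasn (1.43 ± 0.41) and Acly (0.90 ± 0.35, adjusted p = 0.0454). The 4 others were Scd1 (0.60 ± 0.39), Me1 (0.49 ± 0.28), Mlxipl (0.25 ± 0.19) and Srebf1 (0.03 ± 0.19). The adipocyte sums did not overlap between these groups, so this fit cannot fully separate marker level from genotype. Without the liver-bearing WT HFD epididymal replicates 4 and 5, all 9 stayed called, with Thrsp at 3.06 ± 0.28 and Fasn at 2.41 ± 0.31. In subcutaneous fat 1 of 8 adipocyte markers fell and 0 rose (21470 to 27000 CPM in KO HFD, 22380 to 37150 CPM in WT HFD), and 5 of 6 macrophage markers fell (310 to 413 against 533 to 1065 CPM). Of 6 brown or beige markers 4 rose there (62.4 to 114 against 18.6 to 44.6 CPM). Liver markers summed to a median of 89.1 CPM in KO HFD and 12.5 CPM in WT HFD subcutaneous fat, and 1 of the 2 that passed the filter rose. With the adipocyte score as a covariate the 5 genes called in subcutaneous fat stayed called: Thrsp (1.93 ± 0.22), Elovl6 (1.94 ± 0.35), Fasn (1.55 ± 0.28), Acaca (1.07 ± 0.285) and Mlxipl (0.58 ± 0.15). With the lymph node score 6 of the 9 were called, Acly besides (0.81 ± 0.29, adjusted p = 0.0341). No macrophage, brown or beige, or liver marker score was fitted, so the part of those markers in the subcutaneous results was not tested.

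On chow Fasn was the one gene of the 9 called in epididymal fat, where 0.658% of 15042 genes were called and 0.173% were called higher. It had 3124, 6382 and 8359 CPM in KO chow and 983, 2033 and 4000 CPM in WT chow epididymal fat, 2.61-fold higher (1.39 ± 0.27, adjusted p = 0.00593). The groups overlapped, but 5 of 7 KO libraries lay above every WT library. Other enzymes had positive values without passing: Elovl6 at 0.90 ± 0.26 (adjusted p = 0.162), Acaca at 0.65 ± 0.21 (0.241), Acly at 0.61 ± 0.21 (0.290) and Me1 at 0.54 ± 0.17 (0.226). Mlxipl averaged 60.2 ± 7.05 CPM in KO and 61.4 ± 8.66 CPM in WT, and Srebf1 182 ± 27.2 and 192 ± 29.9 CPM (SD, n = 7 and 8), with log2 fold changes of 0.00 ± 0.13 and -0.04 ± 0.15. Of the markers, 0 of 8 adipocyte and 3 of 6 brown or beige ones were called, the brown or beige ones higher in KO. Epididymis markers had a median sum of 1570 CPM in KO chow and 17.3 CPM in WT chow epididymal fat. With the epididymis score as a covariate Me1 was called besides Fasn (0.70 ± 0.16, adjusted p = 0.0253), and with the adipocyte score Elovl6 was (0.94 ± 0.24, adjusted p = 0.0416).

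In subcutaneous fat on chow 0 of the 9 genes were called by edgeR, where 0.253% of 14220 genes were called. At an unadjusted p under 0.05 stood 4 of them: Fasn (1.18 ± 0.31, p = 0.000700), Elovl6 (1.15 ± 0.33, p = 0.00141), Me1 (0.62 ± 0.20, p = 0.00432) and Thrsp (0.62 ± 0.25, p = 0.0191). Over all genes 950 of the 14220 had such a p. DESeq2 called 2 of the 9, Fasn (adjusted p = 0.0171) and Elovl6 (adjusted p = 0.0400). Of 8 adipocyte markers 0 were called, with sums of 20050 to 24030 CPM in KO chow and 12940 to 23710 CPM in WT chow. With the adipocyte score as a covariate edgeR called 0 of the 9, with Fasn at 0.815 ± 0.295 (adjusted p = 0.530), Elovl6 at 1.17 ± 0.37 (0.335), Me1 at 0.43 ± 0.20 (0.803) and Thrsp at 0.35 ± 0.21 (0.954). Fasn had 3649, 5669 and 9082 CPM in KO chow and 1004, 2739 and 4457 CPM in WT chow subcutaneous fat, and all 7 KO libraries lay above the WT median. The medians of the 9 genes on chow were 0.53 in subcutaneous and 0.55 in epididymal fat, against -0.016 and -0.024 for all genes.

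The third comparison asked how diet acts on the pathway, and whether that differs without Inhbe. In WT epididymal fat HFD lowered 5 of the 9 genes and raised 1, where 54.1% of 15042 genes were called, 25.2% lower and 28.9% higher. Thrsp had 54.3, 114 and 177 CPM on HFD and 331, 447 and 748 CPM on chow (-1.84 ± 0.23, adjusted p = 6.32e-08), and Acaca 149 to 257 CPM on HFD (mean 209 ± 34.0) and 395 to 1145 CPM on chow (mean 653 ± 231, SD, n = 8 each; -1.57 ± 0.21, adjusted p = 2.05e-07). Neither overlapped. Mlxipl also fell without overlap (32.4 ± 5.48 on HFD, 61.4 ± 8.66 CPM on chow, -0.83 ± 0.12), and Scd1 (-0.76 ± 0.24, adjusted p = 0.00845) and Srebf1 (-0.66 ± 0.15) fell with overlap. The gene that rose was Me1, with 579, 683 and 818 CPM on HFD and 308, 423 and 614 CPM on chow (0.80 ± 0.17, adjusted p = 0.000183). Fasn (-0.38 ± 0.26), Acly (-0.25 ± 0.20) and Elovl6 (-0.07 ± 0.26) did not pass. On HFD 6 of 8 adipocyte markers fell and 1 rose in this depot (12350 to 19680 CPM on HFD, 15180 to 25250 CPM on chow), and 6 of 6 macrophage markers rose (2841 to 3677 against 590 to 1003 CPM). With the adipocyte score as a covariate Acaca (-0.94 ± 0.32), Thrsp (-0.82 ± 0.27) and Me1 (1.19 ± 0.27) were still called, while Scd1 (-0.22 ± 0.38), Mlxipl (-0.43 ± 0.19) and Srebf1 (0.05 ± 0.18) were not.

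WT subcutaneous fat showed 3 of the 9 genes lower and 1 higher on HFD, where 44.1% of 14220 genes were called, 21.5% lower and 22.6% higher. Acaca fell (60.0, 265 and 367 CPM on HFD and 373, 621 and 932 CPM on chow, -1.38 ± 0.28, adjusted p = 0.000230), as did Thrsp (-1.33 ± 0.26) and Mlxipl (-0.47 ± 0.17). Me1 rose to 919, 1019 and 1181 CPM on HFD, against 193, 450 and 649 CPM on chow, without overlap (1.36 ± 0.20, adjusted p = 3.85e-06). Fasn (-0.09 ± 0.31), Scd1 (-0.07 ± 0.37), Acly (-0.40 ± 0.27), Elovl6 (-0.72 ± 0.33) and Srebf1 (-0.25 ± 0.15) did not pass. Of 8 adipocyte markers 3 rose and 0 fell (22380 to 37150 CPM on HFD, 12940 to 23710 CPM on chow), and 2 of 6 macrophage markers rose. With the adipocyte score as a covariate Srebf1 was called lower (-0.55 ± 0.15, adjusted p = 0.00465), as it was without the liver-bearing WT HFD 6 and KO HFD 2 (-0.45 ± 0.10, adjusted p = 0.000927). Elovl6 was called lower with the lymph node score (-1.01 ± 0.35, adjusted p = 0.0229) and without WT chow 7 and KO chow 5 (-0.86 ± 0.30, adjusted p = 0.0257). The diet effect in WT differed between depots for 0 of the 9 genes (33.3% of 15480 genes called in edgeR), with 3 at an unadjusted p under 0.05 (Me1, Srebf1 and Mlxipl, adjusted p 0.0568 to 0.0897) and 0 called by DESeq2. Over all genes 6525 of the 15480 had an unadjusted p under 0.05.

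In KO mice the diet effect was called for 2 of the 9 genes in each depot. In KO epididymal fat 2 of 9 were higher and 0 lower, where 38.7% of 15042 genes were called and 24.7% were called higher. Me1 had 930, 1123 and 1463 CPM on HFD and 386, 604 and 816 CPM on chow (1.16 ± 0.18, adjusted p = 6.19e-06). Thrsp had 628, 802 and 1446 CPM on HFD and 581, 620 and 738 CPM on chow (0.69 ± 0.23, adjusted p = 0.0191), the opposite direction to WT, though its call ended with the epididymis score as a covariate (adjusted p = 0.0974). Acaca averaged 784 ± 147 CPM on HFD and 1007 ± 279 CPM on chow (n = 8 and 7, -0.11 ± 0.21). In KO subcutaneous fat Acaca fell (-0.83 ± 0.27, adjusted p = 0.0296) and Me1 rose (0.92 ± 0.20, adjusted p = 0.00142), where 20.7% of 14220 genes were called, 9.05% lower and 11.7% higher. Srebf1 did not overlap in CPM there, with 114 to 148 CPM on HFD and 176 to 228 CPM on chow, but was not called (-0.33 ± 0.15, adjusted p = 0.106), except without WT HFD 6 and KO HFD 2 (-0.37 ± 0.10, adjusted p = 0.00828). The median gene was lower by 0.28 on the CPM scale in that comparison.

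The interaction of genotype and diet in epididymal fat was called for 4 of the 9 genes, each in the direction of a more positive diet effect in KO than in WT, where 16.5% of 15042 genes were called and 7.83% were called in that direction. They were Thrsp (2.53 ± 0.33, adjusted p = 4.32e-06), Acaca (1.46 ± 0.30, adjusted p = 0.000810), Srebf1 (0.85 ± 0.21, adjusted p = 0.00547) and Mlxipl (0.68 ± 0.18, adjusted p = 0.00780). Fasn (1.02 ± 0.37, adjusted p = 0.0604) and Scd1 (0.93 ± 0.34, adjusted p = 0.0596) lay just past the threshold in edgeR, while DESeq2 called both (adjusted p = 0.0286 and 0.0274) and edgeR called Scd1 with RLE scaling (adjusted p = 0.0497). Me1, which HFD raised in both genotypes, gave 0.36 ± 0.24 (adjusted p = 0.363). Adipocyte markers followed a like course, with 6 of 8 called higher, and under the adipocyte score covariate 2 of the 9 genes were called, Thrsp (1.43 ± 0.32) and Elovl6 (1.34 ± 0.46). In subcutaneous fat the interaction was called for 0 of the 9 by edgeR and by DESeq2 (2.14% of 14220 genes called in edgeR), and 1, Thrsp, had an unadjusted p under 0.05 (1.04 ± 0.36, p = 0.00704). Over all genes 2075 of the 14220 had such a p.

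Depot differences were called in GFP and in WT HFD mice. In GFP mice 7 of the 9 genes were lower in epididymal than in subcutaneous fat, where 64.5% of 15416 genes were called and 28.7% were called lower. Srebf1 had 143, 163 and 195 CPM in epididymal and 239, 285 and 469 CPM in subcutaneous fat, without overlap (-0.92 ± 0.15, adjusted p = 9.66e-07). Fasn had 960, 1339 and 4969 CPM in epididymal and 2521, 6066 and 9444 CPM in subcutaneous fat (-1.66 ± 0.37, adjusted p = 0.000174). Acaca (-1.19 ± 0.19), Me1 (-0.93 ± 0.19), Thrsp (-0.49 ± 0.18), Scd1 (-0.42 ± 0.16) and Mlxipl (-0.33 ± 0.14) were the others. Adipocyte markers were lower too in GFP epididymal fat, 4 of 8 of them, and 0 were higher. With the adipocyte score as a covariate Scd1 (adjusted p = 0.0771), Thrsp (0.105) and Mlxipl (0.234) were no longer called, while Acly was (-0.75 ± 0.25, adjusted p = 0.00938), which left 5 of the 9.

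WT chow mice of the other experiment had 0 of the 9 genes called between depots by edgeR and by DESeq2, where 43.1% of 15480 genes were called in edgeR and none of the 9 had an unadjusted p under 0.05. Over all genes 7658 of the 15480 had such a p. Fasn averaged 2325 ± 1125 CPM in epididymal and 2749 ± 1116 CPM in subcutaneous fat (SD, n = 8 each, -0.23 ± 0.28). In WT HFD mice 3 of the 9 were lower in epididymal fat, where 40.8% of 15480 genes were called and 18.9% were called lower: Me1 (579 to 818 CPM in epididymal and 919 to 1181 CPM in subcutaneous fat, -0.67 ± 0.18), Mlxipl (-0.49 ± 0.14) and Srebf1 (-0.48 ± 0.15). Of 8 adipocyte markers 7 were lower there too. With the adipocyte score as a covariate none of these 3 genes was called (Me1 -0.15 ± 0.25, Mlxipl -0.02 ± 0.19, Srebf1 0.20 ± 0.17). Thrsp was called under that covariate, with a positive estimate (0.96 ± 0.27, adjusted p = 0.00522). Without the covariate it was not (-0.22 ± 0.24, adjusted p = 0.497), with means of 119 CPM in epididymal and 131 CPM in subcutaneous fat. Adipocyte sums did not overlap between these groups (12350 to 19680 against 22380 to 37150 CPM), so the covariate fit cannot fully separate marker level from depot. The AAV and KO experiments share no mice, and the depot differences of the experiments were not tested against each other.

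Genes around the pathway, in lists chosen with earlier results of these data known, also changed in KO HFD epididymal fat, where 17% of all genes tested were called higher and 20.2% lower. Of 13 genes for carbon and NADPH supply 8 rose and 0 fell (median 0.56), among them Slc2a4, the insulin-responsive glucose transporter GLUT4 (2.44 ± 0.16, adjusted p = 4.10e-12), citrate synthase Cs (0.93 ± 0.11), hexokinase Hk2 (0.90 ± 0.13) and pyruvate carboxylase Pcx (1.17 ± 0.17). All 8 genes of glycerolipid assembly rose (median 1.25), with Mogat1, a monoacylglycerol acyltransferase, at 2.13 ± 0.21, the acyltransferases Agpat2 at 1.22 ± 0.16 and Dgat1 at 1.28 ± 0.17, and the glycerol phosphate dehydrogenase Gpd1 at 1.29 ± 0.18. Of 12 other genes of fatty acid synthesis and modification 5 rose and 0 fell (median 0.53), with Acacb, the other acetyl-CoA carboxylase, at 1.99 ± 0.23, Hsd17b12, the reductase of the elongation cycle, at 1.01 ± 0.12 and the desaturase Scd2 at 0.91 ± 0.18. All-gene medians were 0.006 in this comparison.

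Upstream regulators and the cholesterol branch did not move one way there, where 17% of all genes tested were called higher and 20.2% lower. Among 18 regulators 6 rose and 4 fell: Insig2 (0.72 ± 0.12), which holds SREBPs in the endoplasmic reticulum, and Cebpa (0.80 ± 0.16), an adipocyte transcription factor, rose, and Srebf2 (-0.54 ± 0.12), the SREBP of cholesterol synthesis, and Hes6 (-0.58 ± 0.12) fell. Of 13 cholesterol genes 2 rose, Fdft1 (0.68 ± 0.10) and Lss (0.36 ± 0.11), and 3 fell. The list median was -0.12.

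With mInhbe in subcutaneous fat, where 15.8% of all genes tested were called higher and 11.4% lower, 5 of 12 supply genes fell and 0 rose (median -0.33), led by G6pdx, the NADPH-making entry of the pentose phosphate pathway (-0.59 ± 0.10, adjusted p = 0.000819), with Taldo1 (-0.38 ± 0.07), Slc2a4 (-0.96 ± 0.21) and Cs (-0.32 ± 0.09). Of 10 other fatty acid genes 2 fell, Mid1ip1, the paralog of Thrsp (-0.40 ± 0.07), and the desaturase Fads1 (-0.31 ± 0.10). Of 8 glycerolipid genes 3 fell, Mogat1 (-0.44 ± 0.09), Gpd1 (-0.62 ± 0.16) and Pnpla3 (-0.61 ± 0.20). Of 18 regulators 1 rose (Mbtps2, 0.48 ± 0.12) and 1 fell (Mbtps1, -0.23 ± 0.07). Of 13 cholesterol genes 3 rose (Hmgcs1, 0.98 ± 0.17, Idi1, 0.48 ± 0.18, and Stard4, 0.41 ± 0.14) and 2 fell, among them Fdft1 (-0.67 ± 0.11).

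In epididymal fat with mInhbe, where 1.16% of all genes were called, 2 genes of these lists were, both upward: Insig1 (0.65 ± 0.15, adjusted p = 0.0308), a sterol-responsive partner of SCAP, and Hmgcs1 (0.67 ± 0.16, adjusted p = 0.0389), the HMG-CoA synthase of cholesterol synthesis. HFD in WT mice raised 11 of 13 cholesterol genes and lowered 1 in epididymal fat (median 0.89), and raised 10 of 13 in subcutaneous fat (median 1.08), where 5 and 3 of the 9 lipogenesis genes fell. The shares of all genes were 28.9% higher and 25.2% lower in epididymal fat, and 22.6% higher and 21.5% lower in subcutaneous fat. Lss, lanosterol synthase, is an example of the cholesterol genes (1.17 ± 0.11 in epididymal and 1.59 ± 0.14 in subcutaneous fat). Of the glycerolipid genes HFD lowered 5 of 8 and raised 2 in WT epididymal fat, with Mogat1 at -2.91 ± 0.22 and Gpam, the first acyltransferase of the pathway, at -1.50 ± 0.17.

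**Figure D3:**
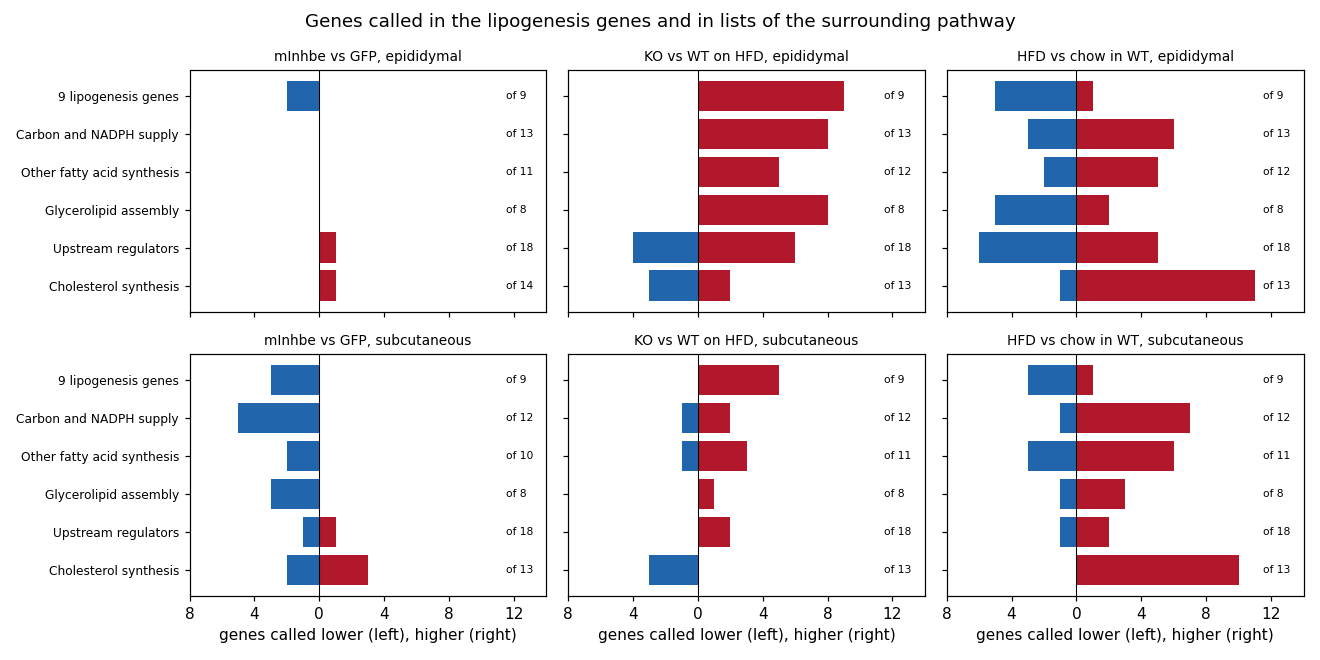
Number of genes called higher (right, red) and lower (left, blue) among the 9 lipogenesis genes and 5 lists of the surrounding pathway, in 6 comparisons, with the number tested at the right edge. In KO against WT on HFD in epididymal fat 9 of 9 lipogenesis and 8 of 8 glycerolipid genes are called higher, while cholesterol genes are called in both directions.

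The 9 genes did not share one profile over the 12 groups. On group means of log2(CPM + 1), centred within each experiment, Fasn correlated with the mean of the other 8 at r = 0.903, Acaca at 0.865, Thrsp at 0.857, Acly at 0.801, Scd1 at 0.795 and Elovl6 at 0.775. Mlxipl and Srebf1 stood at 0.639 each and Me1 at 0.097. These are descriptions over 12 points that share libraries. Outside the 9, the genes most like their mean profile among 11493 with a mean of at least 5 CPM were Agpat3 (r = 0.946), Sh3pxd2a (0.945), Aldh4a1 (0.944), Coq5 (0.940), Afg1l (0.936) and Ogdh (0.936), and the least alike were Nrbf2 (-0.957), Ccz1 (-0.954) and Mapre1 (-0.951).

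Within groups, many pairs of the 9 genes varied together from library to library. Deviations of log2(CPM + 1) from the group mean were correlated over 51 epididymal and 50 subcutaneous libraries for all 36 gene pairs per depot, with p from permutations within groups (1e+05 resamples, smallest possible p 1e-05) and adjustment over all 72. Of the 36 epididymal pairs 13 passed by Pearson's r at adjusted p under 0.05 (median r 0.268), and of the 36 subcutaneous pairs 19 passed (median r 0.382). The share among pairs of other genes was not computed, so these counts cannot be read as particular to the 9 genes.

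In epididymal fat the closest pair was Acaca and Fasn, with r = 0.73 and rho = 0.78 (permutation p = 1e-05 each, adjusted p = 6.5e-05 each), r = 0.658 within the AAV and 0.854 within the KO experiment, and r = 0.677 without the 2 libraries farthest from the median. In subcutaneous fat it was Acaca and Elovl6, with r = 0.83 and rho = 0.829 (permutation p = 1e-05 each, adjusted p = 6.5e-05 each), 0.892 and 0.824 within the experiments, and 0.841 without the 2 farthest libraries. Acly and Me1 followed there (r = 0.791, rho = 0.803, permutation p = 1e-05 each, adjusted p = 6.5e-05 each; 0.936 and 0.623 within the AAV and KO experiments, 0.786 without the 2 farthest).

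Elovl6 in epididymal fat gave r = 0.027 with Acaca, 0.174 with Fasn and 0.082 with Me1, none of which passed. With Acly it did pass (r = 0.501, rho = 0.409, permutation p = 0.001 and 0.0055, adjusted p = 0.0035 and 0.015; 0.671 and 0.244 within the AAV and KO experiments, 0.395 without the 2 farthest libraries). Low values were not particular to Elovl6: Mlxipl gave r = -0.133 with Acly and 0.121 with Me1 in epididymal fat (adjusted p = 0.55 and 0.57). Of the 13 passing pairs there 1 was negative, Elovl6 and Thrsp (r = -0.347, rho = -0.3, permutation p = 0.017 and 0.038, adjusted p = 0.042 and 0.081; -0.494 and -0.23 within the AAV and KO experiments, -0.275 without the 2 farthest libraries).

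The regulators were also set against Fasn. Srebf1 and Fasn gave r = 0.391 and rho = 0.356 in epididymal fat (permutation p = 0.0054 and 0.015, adjusted p = 0.016 and 0.037; 0.586 and 0.184 within the AAV and KO experiments, 0.416 without the 2 farthest libraries). The same pair gave r = 0.565 and rho = 0.414 in subcutaneous fat (permutation p = 0.00085 and 0.0067, adjusted p = 0.0032 and 0.018; 0.638 and 0.451 within the experiments, 0.466 without the 2 farthest). Mlxipl and Fasn gave r = -0.009 and rho = 0.031 in epididymal fat (permutation p = 0.96 and 0.85, adjusted p = 0.97 and 0.9; -0.054 and 0.08 within the experiments, -0.097 without the 2 farthest). In subcutaneous fat they gave r = 0.407 and rho = 0.317 (permutation p = 0.0093 and 0.04, adjusted p = 0.025 and 0.082; 0.338 and 0.495 within the experiments, 0.371 without the 2 farthest). Fat cell content, depth and base composition are shared by the genes of a library, and their part in these correlations was not tested.

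**Figure D4:**
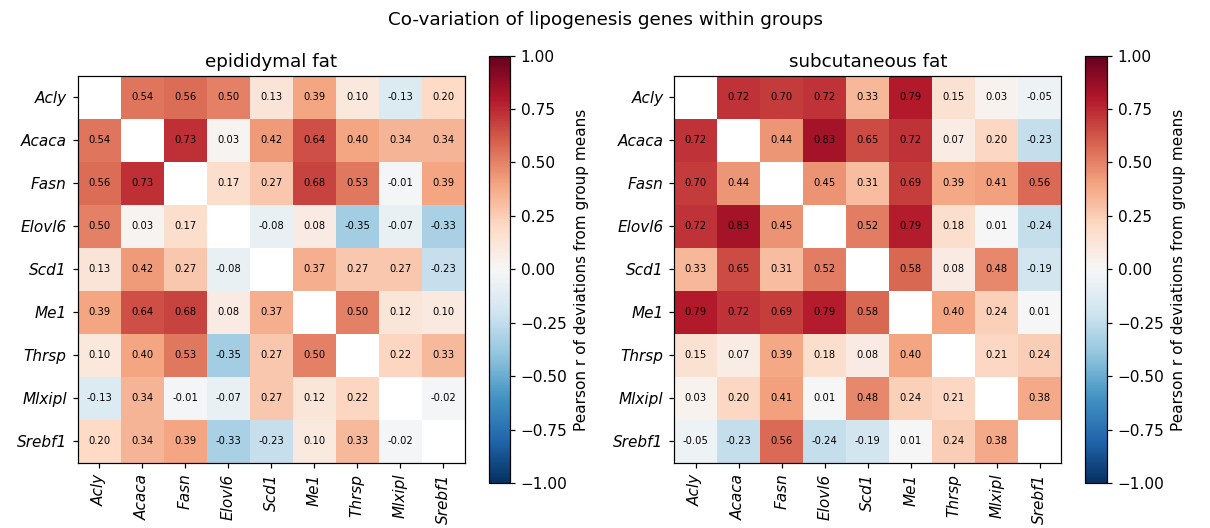
Pearson r between the deviations of each pair of lipogenesis genes from their group means of log2(CPM + 1), over 51 epididymal libraries (left) and 50 subcutaneous libraries (right). The block of Acly, Acaca, Fasn, Elovl6 and Me1 is positive throughout in subcutaneous fat, while Mlxipl and Srebf1 have values near 0 with several genes.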

How the data were processed

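Fat RNA (500 ng) was made into libraries with a poly(A) mRNA kit and UMI adapters, with 14 PCR cycles, and sequenced paired-end for 76 cycles, per the labels' protocols. The authors deposited estimated counts per Entrez gene in 2 tables, one per experiment (24475 genes, 24375 with a RefSeq symbol). Of the values 2.94% were not whole (tolerance 1e-06). The genome was mm10, per the submitters' processing notes; the aligner and the counter were not given in the sources used here. The tests had been drawn up for raw counts, so the expected counts were rounded to whole numbers first.

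Groups and replicate numbers came from the labels, which call the libraries biological replicates. Each depot of each experiment was fitted with edgeR 4.0.16 (R 4.3.3, limma 3.58.1): filterByExpr (minimum count 10, minimum total 15), TMM, robust quasi-likelihood F test, Benjamini-Hochberg adjustment over all genes, called under 0.05. Depot comparisons used joint fits of both depots. Standard errors are the fold change over the root of F. CPM divides by the library total. The fits were tested on simulated data before use. Alternatives were RLE scaling, no filter, replicate block, adipocyte, lymph node or epididymis marker score as covariate, DESeq2 1.42.0 and left-out libraries. Python 3.11.15, numpy 2.4.6, pandas 2.3.3 and matplotlib 3.10.9 did the rest. All 9 genes are named; of each list, up to 4 called genes with the smallest p are, or up to 2 uncalled ones; some list genes are not reported here. Members and lists were chosen with earlier results of these data known.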

Additional observations from a re-analysis of the deposited data

Results flagged for a closer look

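Of 108 groups of values tested for one library far from the others, 19 had one, where chance gives about 1 in 20. GFP subcutaneous replicate 9 was high for Acly (1227 CPM), Acaca (1755 CPM) and Me1 (1354 CPM), and GFP subcutaneous replicate 2 for Srebf1 (468.8 CPM). mInhbe subcutaneous replicate 5 was high for Scd1 (28360 CPM) and mInhbe epididymal replicate 1 for Thrsp (338.3 CPM). GFP epididymal replicate 8, the library with brown fat markers, was high for Elovl6 (224.0 CPM), and GFP epididymal replicate 7, the library with few epididymis transcripts, for Scd1 (36620 CPM).

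In the KO experiment KO HFD epididymal replicate 4 was high for Fasn (12490 CPM), Thrsp (1446 CPM) and Srebf1 (275.2 CPM), and KO HFD subcutaneous replicate 4 for Thrsp (581.6 CPM). KO chow subcutaneous replicate 5 was low for Scd1 (5056 CPM). WT HFD subcutaneous replicate 6 was high for Fasn (5365 CPM) and Srebf1 (254.3 CPM), and replicate 3 of that group was low for Acly (111.1 CPM) and high for Thrsp (271.3 CPM). WT chow replicate 3 was high for Thrsp in both depots, at 748.2 CPM in epididymal and 720.1 CPM in subcutaneous fat.

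Effects that differed between groups by a test of the difference were the diet effect between KO and WT in epididymal fat for Thrsp (2.53), Acaca (1.455), Srebf1 (0.847) and Mlxipl (0.677), and the KO effect on HFD between depots for Thrsp (1.394), Fasn (1.148), Acaca (1.013) and Srebf1 (0.805), all as log2 differences from edgeR with the errors and adjusted p given above.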

How the results depend on the processing

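The 9 genes in 18 comparisons gave 162 results, 52 of them called, and 1251 values under the alternatives. Of these, 37 lost a call and 26 gained one without a change of sign. Another 63 changed sign, 56 of them with no call on either side (28 under the adipocyte score). The other 7, with a call on at least 1 side, came from the adipocyte score covariate: Srebf1 for HFD in WT epididymal fat (0.047), Thrsp (0.958) and Srebf1 (0.202) for epididymal against subcutaneous WT HFD fat, Fasn (-0.223), Thrsp (-0.009) and Srebf1 (-0.002) for the KO effect on HFD between depots, and Thrsp (0.926) for the HFD effect in WT between depots. Each of these 7 also lost or gained a call. Thrsp gained one between depots in WT HFD fat and for the HFD effect in WT between depots. The other values lost one. The cause was not tested.

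With that covariate the number of the 9 genes called became 1 for mInhbe in subcutaneous fat (3 without it), 5 for KO on HFD (9), 3 for HFD in WT (6) and 2 for the genotype by diet interaction (4), these last 3 in epididymal fat. It became 1 for the subcutaneous interaction (0), 2 for KO on chow in epididymal fat (1), 1 for the depots in WT HFD mice (3), 0 for the KO effect on HFD by depot (4) and 1 for the HFD effect in WT by depot (0). The lymph node score left 1 for mInhbe in subcutaneous fat, and the epididymis score gave 2 for KO on chow and 1 for HFD in KO (2) in epididymal fat. DESeq2 called 2 for KO on chow in subcutaneous fat (0), and 1 was called there without WT HFD 6 and KO HFD 2. Without WT HFD epididymal replicates 4 and 5, chosen after seeing the data, 2 were called for KO on HFD by depot. The fits without mInhbe replicate 2, and without WT chow 7 and KO chow 5, all in subcutaneous fat, were not planned beforehand either. Without WT chow 1 and WT HFD 1, 2 and 4, the HFD effect by depot gave 1.

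Over all genes, mInhbe in subcutaneous fat gave 3801 calls, 202 with the adipocyte and 227 with the lymph node score. In epididymal fat it gave 173, and 399 (adipocyte), 260 (epididymis) and 313 (DESeq2). KO on chow gave 36 in subcutaneous fat, and 61 (lymph node), 114 (DESeq2), 64 without WT HFD 6 and KO HFD 2, and 102 without WT chow 1 and WT HFD 1, 2 and 4. In epididymal fat it gave 99, and 211 (adipocyte) and 182 (DESeq2). The subcutaneous interaction gave 304, and 517 (adipocyte) and 569 (DESeq2). The mInhbe effect by depot gave 2081, and 471 (adipocyte) and 877 without GFP subcutaneous 2 and epididymal 7 and 8. KO on HFD by depot gave 2264, and 587 (adipocyte).

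The replicate numbers were not taken to pair the samples, since the labels do not say so. Same-numbered libraries had median correlations over all genes of -0.115 to 0.192 over all pairs of groups, many of which cannot share a mouse. Between the depots of one group the medians were -0.09 (mInhbe) to 0.08 (WT chow). There the own number was the best match for 4 of 8 libraries in KO HFD, 3 of 7 in KO chow, 2 of 8 in WT chow, 1 of 7 in WT HFD, 2 of 10 in GFP and 0 of 10 in mInhbe. Scd1 also correlated between depots, so whether the numbers mark mice was not settled. With the number as a block, 1 of the 9 genes was called for mInhbe in epididymal fat (2 without it), 1 for HFD in KO subcutaneous fat (2) and 2 for KO on HFD by depot (4). The calls that ended were Scd1 for mInhbe in epididymal fat (-0.88 ± 0.18, adjusted p = 0.0553), Acaca for HFD in KO subcutaneous fat (-0.75 ± 0.29, 0.0723), Acaca (0.0504) and Fasn (0.0690) for KO on HFD by depot, and Mlxipl for mInhbe (0.0550) and for KO on HFD (0.0521) in subcutaneous fat and between depots in GFP mice (0.0614). The block added Fasn for HFD in KO epididymal fat (0.0436) and Scd1 for the epididymal interaction (0.0460). Over all genes the block gave 76 for mInhbe in epididymal fat, 23 for KO on chow in subcutaneous fat and 1052 for the mInhbe effect by depot.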

Other observations

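Scd1 was the one gene of the 9 whose deviations from the group mean passed a test of correlation between epididymal and subcutaneous libraries that carry the same number (n = 50 pairs): Pearson's r was 0.714 (permutation p = 5e-05, adjusted over 9 genes 0.00045) and Spearman's rho 0.506 (permutation p = 0.00074, adjusted 0.0067). Without the 2 pairs farthest from the median r was 0.49. It was 0.746 within KO HFD (n = 8), -0.232 within WT HFD (n = 7), 0.949 within KO chow (n = 7), 0.938 within WT chow (n = 8), 0.544 within mInhbe and 0.465 within GFP (n = 10 each). KO chow replicate 5 had 10443 CPM of Scd1 in epididymal and 5056 CPM in subcutaneous fat, and WT chow replicate 7 had 7881 and 5181 CPM. The labels do not say that a number marks 1 mouse across depots.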
